A study of Mus musculus with 9 samples.

Results

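The genes described here are 10 members of the p53 pathway: Trp53 itself, its inhibitor Mdm2, and the target genes Cdkn1a, Ccng1, Sesn1, Sesn2, Zmat3, Phlda3, Trp53inp1 and Gadd45a. They were taken by symbol from a list that leaves out p53 targets of the Bcl2 family, and all 10 were found among the 22178 gene symbols of the table. Their mRNA levels come from RNA-seq of 9 mouse B cell libraries, 3 in each of 3 groups, all on a backcrossed C57BL/6 background. B2 cells, the conventional B cells, were splenic, and their mice had the strain label VH12B1-8/Vk4. B1 cells, the innate-like B cells of body cavities, were peritoneal, and their mice had the strain label B1-8VH12/Vk4. B2B1 cells were peritoneal cells of the same B1-8VH12/Vk4 label, whose B cell receptor (BCR) had been switched about 30 days earlier. All 3 groups therefore carry the VH12, B1-8 and Vk4 names in their strain labels. A VH12 heavy chain paired with a Vk4 light chain is known to form a phosphatidylcholine-binding receptor typical of B-1 cells. The sources used here give neither age, nor the agent of the switch, nor the way the cells were purified. Tissue, strain label and cell class differ together between B2 and the other groups, so their parts in any difference from B2 cannot be told apart.

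As background, p53 is a transcription factor that is held low by Mdm2, a ubiquitin ligase that marks it for degradation and whose own gene p53 switches on. DNA damage and other stresses stabilise p53, which then raises targets that halt the cell cycle (Cdkn1a, Gadd45a), restrain growth signalling (sestrins, Phlda3) or act on RNA, autophagy and cell death (Zmat3, Trp53inp1). Several of these genes also answer to other factors, such as FoxO for sestrins and ATF4 for Sesn2, and p53 is regulated mostly at the protein level, which RNA does not show. In B lymphocytes p53 is known for removing cells with DNA breaks left by receptor gene rearrangement.

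p53 binds DNA as a tetramer through paired half-sites, so the stretches before the start sites of the members were searched for the p53 half-site consensus decamer. It has 3 purines, a C, 2 bases that are A or T, a G and 3 pyrimidines, and it is searched on both strands at once because its reverse complement is the same pattern. Of the members, 8 had an entry in the RefSeq promoter table (GRCm38.p6), with 10 start sites in all. Zmat3 and Trp53inp1 had none. A half-site lay within the 250 bases before the start site in 6 of these 10 windows, against 2341 of 32851 windows (7.13%) in the whole table. A pair of half-sites separated by at most 13 bases was found before 1 start site of Cdkn1a and in 21 windows (0.0639%) of the table. The members were picked as known p53 targets, so this share describes the choice of genes. The stretches below, outside annotated exons and with half-sites in capitals, belong to the cyclin-dependent kinase inhibitor gene Cdkn1a (chr17:29090729-29090975, plus strand), which holds the pair, to Mdm2 (chr10:117710759-117711008, minus strand), to Ccng1 (chr11:40755312-40755536, minus strand) and to Sesn1 (chr10:41887189-41887438, plus strand), the member with the largest change in B2B1 against B2. All are from RefSeq on GRCm38 and run 5′ to 3′ toward the start site.
Cdkn1a: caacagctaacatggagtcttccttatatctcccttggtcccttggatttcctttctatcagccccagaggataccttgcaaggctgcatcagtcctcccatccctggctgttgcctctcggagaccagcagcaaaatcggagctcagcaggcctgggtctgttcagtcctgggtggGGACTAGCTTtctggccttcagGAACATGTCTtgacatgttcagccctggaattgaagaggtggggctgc
Mdm2: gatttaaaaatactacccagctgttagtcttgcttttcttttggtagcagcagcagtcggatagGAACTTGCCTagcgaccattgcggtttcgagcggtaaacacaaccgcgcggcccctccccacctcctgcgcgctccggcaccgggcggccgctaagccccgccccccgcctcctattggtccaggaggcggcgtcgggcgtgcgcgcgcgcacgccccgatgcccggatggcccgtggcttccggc
Ccng1: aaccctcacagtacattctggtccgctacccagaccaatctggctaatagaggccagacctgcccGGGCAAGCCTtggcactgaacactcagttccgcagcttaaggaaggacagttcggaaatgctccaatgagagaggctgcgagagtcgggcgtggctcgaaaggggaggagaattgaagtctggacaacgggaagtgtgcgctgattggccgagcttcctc
Sesn1: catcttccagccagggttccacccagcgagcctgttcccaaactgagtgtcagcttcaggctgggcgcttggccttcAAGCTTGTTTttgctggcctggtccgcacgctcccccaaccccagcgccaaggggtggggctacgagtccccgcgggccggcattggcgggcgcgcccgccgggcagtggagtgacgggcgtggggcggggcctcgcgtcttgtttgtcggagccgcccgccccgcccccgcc
The half-sites of Cdkn1a began 73 and 51 bases before its start site 1, and that of Sesn1 began 173 bases before its start site 2. Those of Mdm2 and Ccng1 began 186 and 185 bases before theirs. The windows of Cdkn1a start site 2 and Sesn1 start site 1 held no half-site. Trp53 had GGACTTGCCC, which began 75 bases before its start site (chr11:69580284-69580293, plus strand). Gadd45a had GGGCTAGCCC, which began 40 bases before the start site of the table (chr6:67037438-67037447, minus strand) and lay in an exon of the GENCODE annotation. The well-studied p53 elements of Mdm2 and Gadd45a are known to lie in introns, outside these windows. The search allowed no mismatch. In Cdkn1a, tgacatgttc directly follows GAACATGTCT and departs from the pattern only in its opening t. In Ccng1, agacctgccc directly precedes GGGCAAGCCT and departs only in the c next to its t. Neither was marked or counted. A match is a description of letters and no evidence of binding, and the expression data hold no measure of binding.

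**Figure D1:**
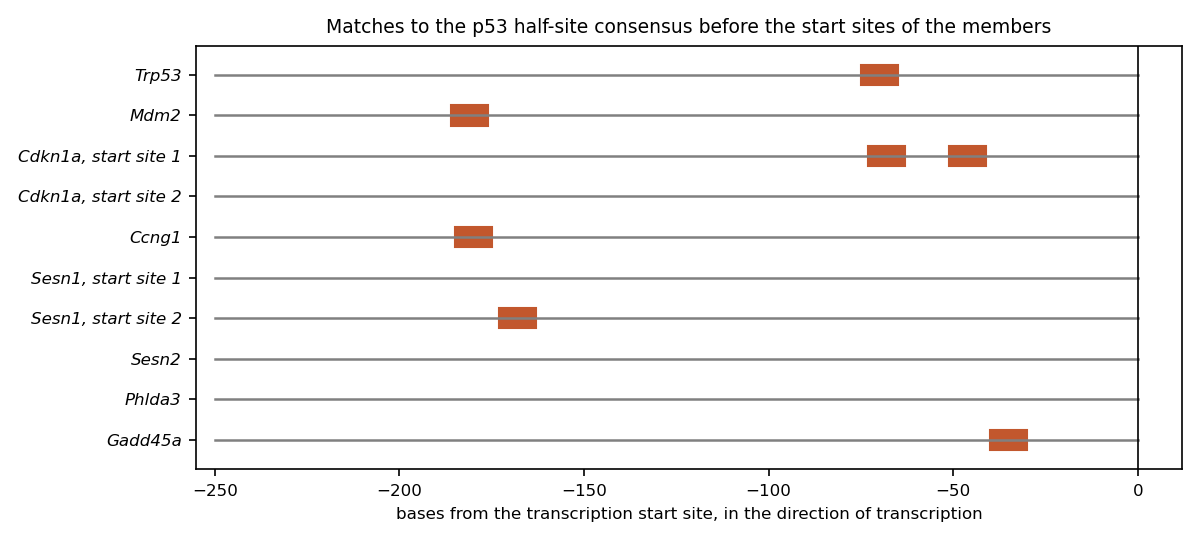
Matches to the p53 half-site consensus (orange blocks, drawn to scale at 10 bases each) before the 10 start sites of the 8 members in the promoter table. The horizontal axis is the distance in bases from the transcription start site, and grey lines mark the 250 bases searched; 6 windows hold a match, and that of Cdkn1a start site 1 holds a pair.

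Levels are in TPM, a share of all transcripts corrected for gene length, which can be compared between genes but keep no read counts, so the depth of the libraries is unknown. Between 10711 and 10945 genes reached 1 TPM per library. B cell markers were high throughout, summing to between 20252 and 27392 TPM over 8 genes, while the B-1 markers Cd5, Spn, Zbtb32 and Cd9 summed to 21.2 to 21.4 TPM in B2 and to 559 to 1091 TPM in the peritoneal groups. Of these, Cd5 differed from B2 by 0.39 on the log2 scale in B2B1 and did not pass the test (adjusted p = 0.119). A list of 12 macrophage markers, of which 10 are in the table, summed to 1.25 to 2.78 TPM in B2 and 21.3 to 48.3 TPM in B1, and to 262, 66.8 and 95.3 TPM in B2B1 libraries 1, 2 and 3. All 4 macrophage genes that passed the filter (Emr1, Lyz2, C1qa, C1qb) were called higher in B2B1 than in B2, and Emr1 also in B1. Their B2 means were under 1 TPM, so they passed only through the peritoneal libraries. The filter thus largely set this direction, and the count is no separate result. In B2B1, Emr1 had 39.9 to 52.0 TPM, Lyz2 22.3 to 181 TPM, C1qa 1.94 to 7.77 TPM and C1qb 1.43 to 11.7 TPM, while Csf1r had 0.458 to 2.13 TPM, Cd14 0.114 to 1.45 TPM and Fcgr1 0 to 0.0897 TPM. The 7 T cell genes summed to 279.6 to 332 TPM in B2. The sums were 796 to 880.1 TPM in B2B1 and 731 to 896 TPM in B1. Cd2 alone made up most of each sum. It had 271 to 321 TPM in B2, 789 to 871 TPM in B2B1 and 711 to 879 TPM in B1. Of 5 T cell genes tested, 2 were called higher and 1 lower in B1 against B2. In B2B1 against B2, 1 was called higher and 1 lower. Cd3g had 6.12 to 10.7 TPM in B1 and at most 0.512 TPM in the other groups, Cd3d had 1.93 to 8.32 TPM over all libraries, and Cd3e was at most 0.0837 TPM. The part of these markers in the members' values was not tested. Markers of NK cells and neutrophils summed to at most 1.15 and 1.47 TPM. Xist was near 0 (0.355 to 0.461 TPM) in B2B1 libraries 1 and 2 and in B2 library 2, and at 180.4 TPM or more elsewhere, so libraries of both sexes occur. The mean log2 level of 16 cell cycle genes was 3.99 in B2B1 library 1 and 3.77 in B1 library 2, against 2.37 to 3.15 in the other 7 libraries. The labels do not say whether replicate libraries stem from different mice. By Xist, the B2 libraries and the B2B1 libraries did not all come from 1 mouse, while for B1, and for libraries of like Xist level, the spread that p-values measure may be technical. These are bulk samples, in which fewer cells of a type and less RNA per cell cannot be told apart.

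Differences were tested with limma on the log2(TPM + 1) scale in the 11099 genes whose mean reached 1 TPM. Calls required an adjusted p (Benjamini-Hochberg over all genes tested) under 0.05. All 10 members passed the filter. Phlda3 did so only through B2B1, as its means were 0.129 TPM in B2 and 0.739 TPM in B1. The filter thus favoured a rise of Phlda3 in B2B1. In B1 against B2, 2 of the 10 rose (Ccng1, Zmat3) and 4 fell (Trp53, Mdm2, Sesn1, Gadd45a), while 18.0% of all tested genes were called higher and 33.9% lower. In B2B1 against B2, 4 rose (Cdkn1a, Ccng1, Zmat3, Phlda3) and 5 fell (Trp53, Mdm2, Sesn1, Trp53inp1, Gadd45a), beside 21.0% and 42.0% of all genes. In B2B1 against B1, 2 rose (Ccng1, Phlda3) and 2 fell (Sesn1, Trp53inp1), beside 6.93% and 12.1%. The members thus moved in both directions in each comparison. The comparisons with B2 share their B2 libraries.

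The median change over all tested genes was -0.14, -0.19 and -0.06 on the log2 scale in B1 against B2, B2B1 against B2 and B2B1 against B1, and that of the 10 members was -0.20, -0.46 and -0.01. Scaling the libraries by the median of ratios brought the medians of all genes to between -0.0031 and -0.00069. It also turned the split of calls from 2003 higher and 3762 lower to 2768 and 2547 in B1 against B2, from 2332 and 4663 to 3380 and 3171 in B2B1 against B2, and from 769 and 1339 to 1047 and 944 in B2B1 against B1. No member changed direction under either rescaling, and Trp53 in B1 against B2 was the only member whose call ended. Relative to the median of all genes, the members that fell in B2B1 against B2 lay 0.33 to 2.81 below it and those that rose 0.73 to 1.78 above it.

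**Figure D2:**
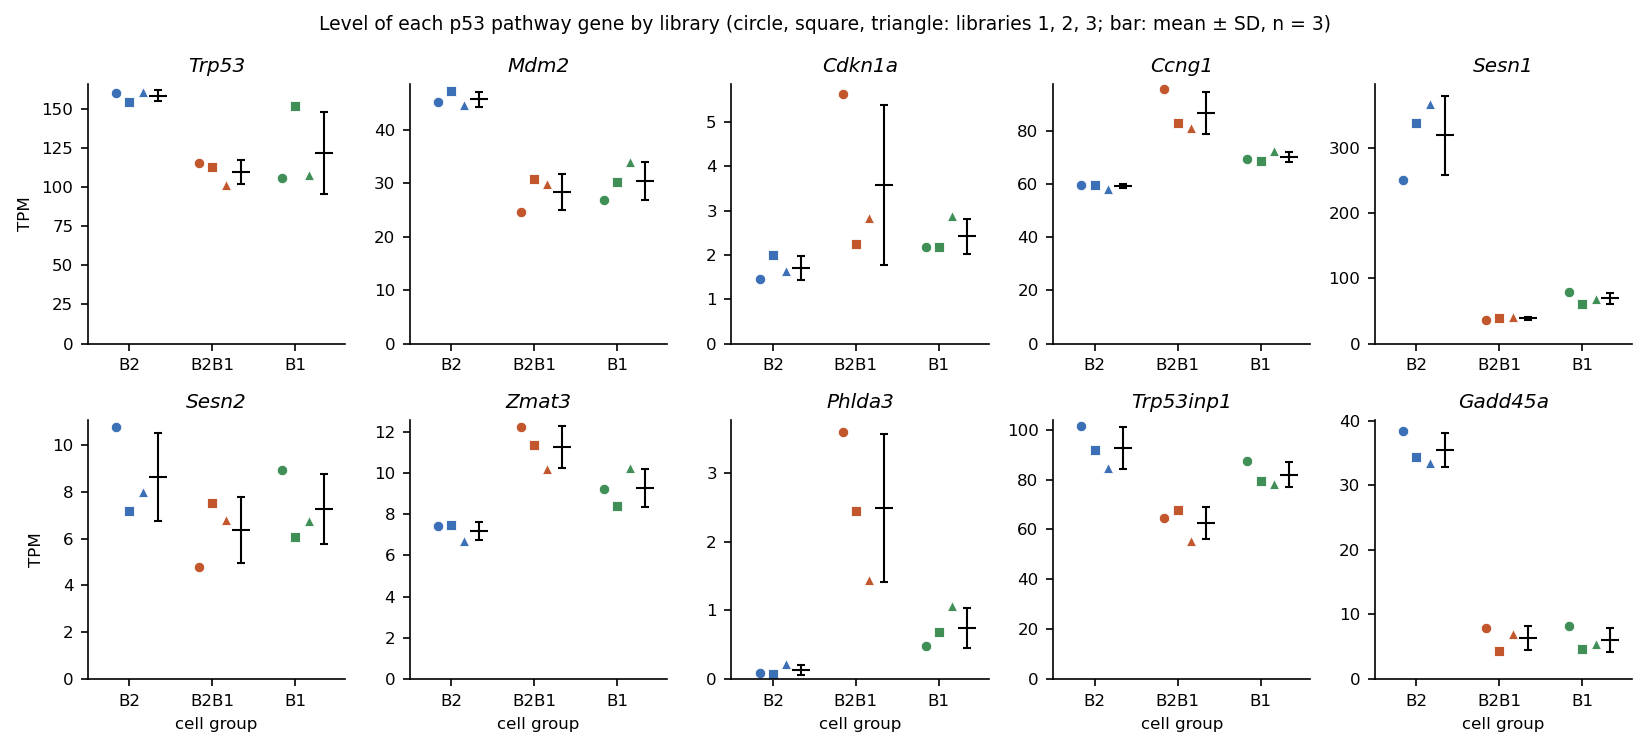
TPM of the 10 members in each library (vertical axes start at 0 and differ between genes; circle, square and triangle are libraries 1, 2 and 3 of B2, B2B1 and B1; black bars are mean ± SD, n = 3). Sesn1 and Gadd45a are far lower in both peritoneal groups than in B2, Phlda3 is highest in B2B1, and B2B1 library 1 lies above the rest for Cdkn1a.

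Trp53, which encodes p53, was among the more abundant mRNAs, higher than 92.7% of the genes that reached 1 TPM in B2. It measured 160.2, 154 and 161 TPM in the B2 libraries, 115, 113 and 101 TPM in B2B1, and 105, 151 and 107 TPM in B1. The B2 libraries were the highest and overlapped neither other group, but B1 library 2 lay close beneath them and apart from the other B1 libraries. Trp53 fell by 0.53 in B2B1 (SE 0.128, adjusted p = 0.00581). In B1 it fell by 0.40 (SE 0.128, adjusted p = 0.0269). The call in B1 was lost without any 1 of the B2 libraries 1, 2 or 3 (adjusted p = 0.0722, 0.0542 and 0.0713) and without B1 library 1 or 3 (adjusted p = 0.091 and 0.093), while the fall was 0.57 without B1 library 2. It was also lost under rescaling by the median of ratios (-0.25, adjusted p = 0.111), under quantile normalization (-0.28, adjusted p = 0.104) and with a term for sex (adjusted p = 0.0568). B2B1 and B1 overlapped and did not differ by the test (-0.13, 95% interval -0.42 to 0.16).

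Mdm2, whose product ubiquitinates p53, measured 45.3, 47.4 and 44.7 TPM in B2, 24.6, 30.8 and 30.0 TPM in B2B1 and 26.9, 30.2 and 34.1 TPM in B1. Every peritoneal library was lower than every B2 library, and the peritoneal groups overlapped each other. Mdm2 fell by 0.67 in B2B1 (SE 0.106, adjusted p = 0.00051) and by 0.58 in B1 (SE 0.106, adjusted p = 0.00166). The difference between B2B1 and B1 was -0.09 (95% interval -0.33 to 0.15). Both falls were called under each of the alternative settings tried. The Mdm2 means were 45.8 ± 1.43 TPM in B2 (SD, n = 3), 28.5 ± 3.35 TPM in B2B1 and 30.4 ± 3.57 TPM in B1, and the order of B2B1 and B1 was not resolved for Mdm2 or Trp53.

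Cdkn1a encodes p21, the inhibitor of cyclin-dependent kinases through which p53 halts the cell cycle. Its mRNA was scarce in each group, with 1.47, 1.99 and 1.65 TPM in B2, 5.64, 2.25 and 2.84 TPM in B2B1, and 2.19, 2.19 and 2.87 TPM in B1. The B2 libraries were the lowest, and B2B1 library 1 stood far above the other 8. Cdkn1a rose by 0.70 in B2B1 (SE 0.246, adjusted p = 0.0338), and without B2B1 library 1 the difference was 0.39 and not called (adjusted p = 0.0742). The call also ended without B2 library 1 or 3 (adjusted p = 0.0957 and 0.0787) and in 5 further settings, among them a term for sex (adjusted p = 0.0767). In B1 the difference of 0.34 was not called (95% interval -0.22 to 0.90, adjusted p = 0.278), and neither was that of B2B1 from B1 (0.36, 95% interval -0.20 to 0.92). B2B1 library 1 also had the highest sums of macrophage markers, 262 TPM, and the highest mean of the cell cycle genes. Their part in its Cdkn1a level was not tested.

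Ccng1, the cyclin G1 gene, is a p53 target whose product binds a phosphatase subunit and Mdm2. It measured 59.9, 59.9 and 58.4 TPM in B2, 95.7, 83.3 and 81.2 TPM in B2B1 and 69.7, 68.6 and 72.6 TPM in B1. The 3 groups did not overlap, with B2B1 above B1 and B1 above B2. It rose by 0.53 in B2B1 against B2 (SE 0.0692, adjusted p = 0.00016), by 0.24 in B1 against B2 (adjusted p = 0.0176) and by 0.30 in B2B1 against B1 (adjusted p = 0.0191). The rise in B1 was no longer called without B2 library 3 (adjusted p = 0.0563) or B1 library 3 (adjusted p = 0.0571). That of B2B1 over B1 was no longer called without B1 library 1 (adjusted p = 0.0567), in a fit of these 2 groups alone (adjusted p = 0.0655) or with a term for sex (adjusted p = 0.129).

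Gadd45a, a growth arrest and DNA damage gene that binds PCNA and p21 and can activate stress kinases, had the largest fall of the members in B1 and was next to Sesn1 in B2B1. The B2 libraries had 38.4, 34.4 and 33.4 TPM, the B2B1 libraries 7.90, 4.31 and 6.99 TPM, and the B1 libraries 8.18, 4.66 and 5.37 TPM. Both peritoneal groups lay far beneath B2 and overlapped each other. The fall was 2.33 in B2B1 (SE 0.222, adjusted p = 2.5e-05) and 2.39 in B1 (SE 0.222, adjusted p = 3.0e-05), and both were called in each setting tried. B2B1 differed from B1 by 0.06 (95% interval -0.44 to 0.56), and the sign of this difference changed without B2B1 library 1 or 3 or B1 library 2 (-0.09, -0.0094 and -0.08).

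Sesn1 and Sesn2 encode sestrins, which bind the GATOR2 complex and restrain the growth kinase complex mTORC1. Sesn1 was the most abundant member in B2, higher than 96.9% of the genes that reached 1 TPM there. It measured 250.2, 338 and 367 TPM in B2, 35.8, 38.8 and 40.6 TPM in B2B1, and 78.1, 61.0 and 67.6 TPM in B1. The groups did not overlap, and the B2B1 libraries were the lowest. The fall was 3.00 in B2B1 (SE 0.143, adjusted p = 4.6e-07) and 2.18 in B1 (SE 0.143, adjusted p = 3.7e-06), and B2B1 was lower than B1 by the test (log2 fold change -0.82, SE 0.143, adjusted p = 0.00527). All 3 differences were called in each setting tried, which holds for no other member. The members summed to 675 to 765 TPM in B2, 336 to 370.1 TPM in B2B1 and 386 to 413 TPM in B1. Without Sesn1 the sums were 398 to 425, 296 to 334 and 319 to 352 TPM, so the order of B2 above the others did not rest on Sesn1 alone.

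Sesn2, the stress-inducible sestrin, was much less abundant than Sesn1. Its levels were 10.8, 7.19 and 7.97 TPM in B2, 4.80, 7.51 and 6.80 TPM in B2B1 and 8.94, 6.09 and 6.76 TPM in B1. The 3 groups overlapped one another. No difference was called in any setting tried: -0.39 in B2B1 against B2 (95% interval -0.84 to 0.06), -0.22 in B1 against B2 (95% interval -0.67 to 0.23) and -0.17 in B2B1 against B1 (95% interval -0.62 to 0.28). The whole intervals of the Sesn1 falls, -3.33 to -2.68 in B2B1 and -2.50 to -1.86 in B1, lay outside those of Sesn2. The difference between the genes was not itself tested.

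Zmat3 encodes a zinc finger protein that binds RNA and affects splicing and mRNA stability. It measured 7.40, 7.46 and 6.69 TPM in B2, 12.2, 11.3 and 10.2 TPM in B2B1 and 9.20, 8.40 and 10.2 TPM in B1. Each peritoneal library was above each B2 library, and the highest B1 library lay slightly above the lowest B2B1 library. It rose by 0.58 in B2B1 (SE 0.103, adjusted p = 0.00104) and by 0.33 in B1 (SE 0.103, adjusted p = 0.0256). The rise in B1 was no longer called without B2 library 1 or 3 (adjusted p = 0.0533 and 0.0869) or without B1 library 1 or 3 (adjusted p = 0.056 and 0.0875). B2B1 against B1 gave 0.25 (95% interval 0.02 to 0.49, adjusted p = 0.119), which was not called.

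Phlda3 encodes a small pleckstrin homology protein that competes with Akt for membrane lipids. It was near the lower limit in B2, with 0.0932, 0.0807 and 0.213 TPM, against 3.59, 2.44 and 1.44 TPM in B2B1 and 0.479, 0.682 and 1.06 TPM in B1. The groups did not overlap, with B2B1 highest and B2 lowest, although the B2B1 libraries were spread over the widest range. Phlda3 rose by 1.58 in B2B1 against B2 (SE 0.238, adjusted p = 0.00039). Every setting able to test it gave this call, the one without a filter included, although the filter used here favoured this direction. At under 4 TPM the size depends on the pseudocount, and with 0.1 in place of 1 the difference was 3.46. In B1 against B2 the difference of 0.61 was not called (adjusted p = 0.0571), but it was in 9 of 20 alternatives, and with a pseudocount of 0.1 it was 1.86 (adjusted p = 0.00776). The alternatives ranged down to a difference of 0.20, with adjusted p up to 0.514. B2B1 against B1 gave a rise of 0.97 (SE 0.238, adjusted p = 0.0230). This last call ended without B2B1 library 1 or 2 (adjusted p = 0.0635 and 0.0631), without B1 library 1 (adjusted p = 0.077), in a fit of the 2 groups alone (adjusted p = 0.0618) and with a term for sex (adjusted p = 0.148). The macrophage markers ranked the B2B1 libraries with library 1 highest, as Phlda3 did, and libraries 2 and 3 in the opposite order to Phlda3; their part was not tested.

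Trp53inp1 encodes a p53-induced nuclear and autophagy protein that helps p53 act on its targets. It measured 102, 92.0 and 84.6 TPM in B2, 64.4, 67.6 and 55.4 TPM in B2B1 and 87.6, 79.6 and 78.4 TPM in B1. The B2B1 libraries were lower than all others, and B1 overlapped B2. It fell by 0.56 in B2B1 against B2 (SE 0.0946, adjusted p = 0.00075) and by 0.39 in B2B1 against B1 (SE 0.0946, adjusted p = 0.0225). The latter call ended without B2B1 library 3 (adjusted p = 0.0617) or B1 library 1 (adjusted p = 0.075). In B1 against B2 the difference was -0.18 (95% interval -0.39 to 0.04, adjusted p = 0.150), close to the median of all genes.

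**Figure D3:**
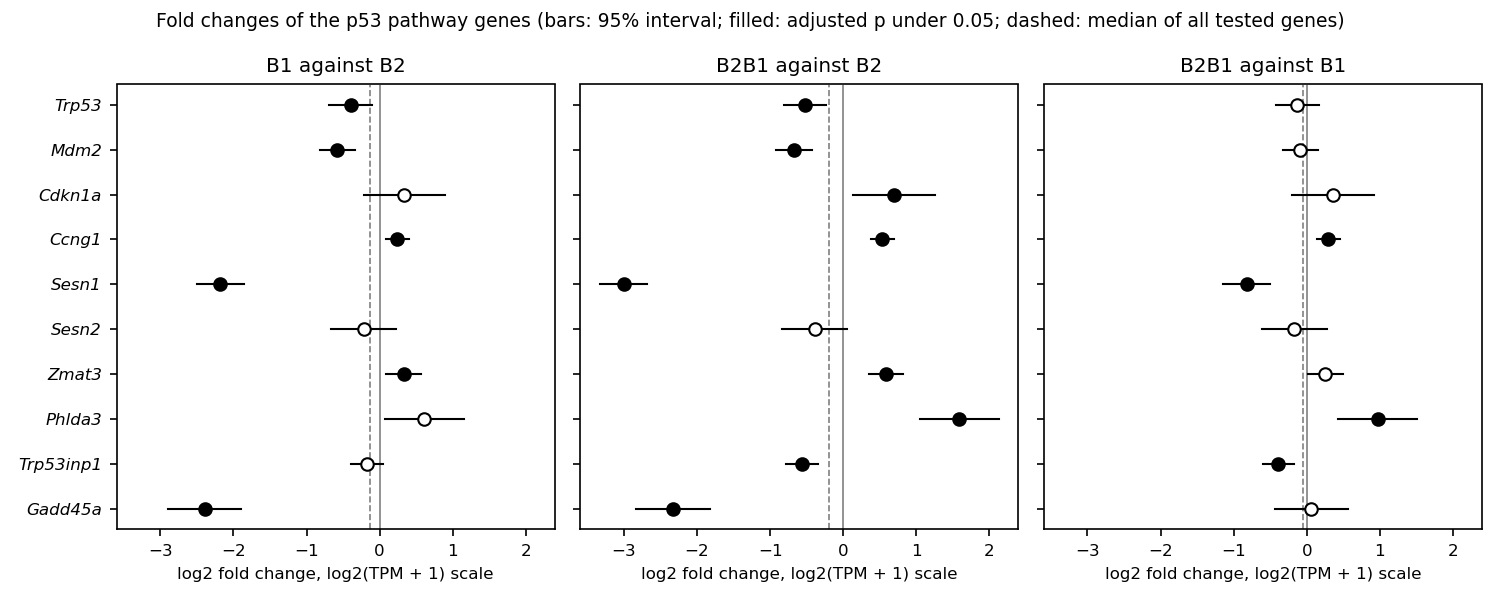
Log2 fold changes of the 10 members on the log2(TPM + 1) scale in the 3 comparisons, with 95% intervals; filled points passed an adjusted p of 0.05, and dashed lines mark the median of all 11099 tested genes. Sesn1 and Gadd45a lie more than 2 units below 0 in both comparisons with B2, and the other members lie between -0.67 and 1.58.

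Replicate spread differed between the members. In B2 the coefficient of variation was 1.48% for Ccng1, 2.37% for Trp53 and 3.12% for Mdm2, and 56.6% for Phlda3, which was under 1 TPM there. In B2B1 it was highest for Cdkn1a, at 50.6%, and Phlda3, at 43.1%. Trp53 varied by 21.4% in B1, through library 2. Leaving out both B2B1 library 1 and B1 library 2, a choice made after seeing the data, left 7, 8 and 3 members called in B1 against B2, B2B1 against B2 and B2B1 against B1, where the full set gave 6, 9 and 4.

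A wider list of 30 p53 target genes was counted beside the members: 29 were in the table and 23 passed the filter. Of these 23, 6 rose and 9 fell in B1 against B2, 7 rose and 8 fell in B2B1 against B2, and 2 rose and 5 fell in B2B1 against B1. The shares that rose were 26.1%, 30.4% and 8.7%, beside 18.0%, 21.0% and 6.93% of all genes. Those that fell were 39.1%, 34.8% and 21.7%, beside 33.9%, 42.0% and 12.1%. Their median changes of -0.06, -0.12 and 0.01 compare with -0.14, -0.19 and -0.06 for all genes, and under median-of-ratios scaling the counts in the comparisons with B2 were 7 and 7, and 9 and 7. Ddb2, a DNA damage recognition gene, had 69.7, 71.5 and 68.7 TPM in B2, 17.1, 17.2 and 14.9 TPM in B2B1 and 27.0, 29.9 and 22.0 TPM in B1. Its libraries fell into 3 separate ranges in the same order as those of Sesn1, with changes of -2.03, -1.39 and -0.64 (adjusted p = 8.6e-07, 1.0e-05 and 0.00443) in B2B1 against B2, B1 against B2 and B2B1 against B1. The polo-like kinase gene Plk3 fell by 1.84 in B2B1 and 1.63 in B1, and the repair gene Xpc fell by 0.66 in B2B1. Ier5 fell by 0.55 in B1.

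The targets that rose included Abhd4, a lipid hydrolase gene, with 6.06, 7.30 and 7.92 TPM in B2, 23.0, 16.7 and 20.8 TPM in B2B1 and 20.5, 16.0 and 20.1 TPM in B1. Its changes were 1.38 in B2B1 (adjusted p = 4.7e-05) and 1.29 in B1 (adjusted p = 0.0001). Psrc1, also counted among the rises, had 0.155, 0.269 and 0.708 TPM in B2, 2.02 to 7.72 TPM in B2B1 and 1.28 to 3.16 TPM in B1. It passed the filter only through the peritoneal libraries, so the filter favoured its rises against B2. Plk2, a kinase gene of the same family as Plk3, had 1.98, 2.78 and 2.45 TPM in B2, 7.00, 3.94 and 11.1 TPM in B2B1 and 29.1, 13.8 and 41.6 TPM in B1. Plk2 thus was highest in B1: it rose by 2.98 in B1 against B2 (adjusted p = 0.0003) and by 1.21 in B2B1 against B2 (adjusted p = 0.0266), and fell by 1.77 in B2B1 against B1 (adjusted p = 0.0173). The call in B2B1 against B2 ended without B2 library 1 or 3 (adjusted p = 0.0784 and 0.0600) or B2B1 library 1 or 3 (adjusted p = 0.0610 and 0.0914), and that in B2B1 against B1 without B2B1 library 2 (adjusted p = 0.0513) or B1 library 1 or 3 (adjusted p = 0.0581 and 0.0538).

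Fas, the death receptor gene, showed the reverse order, with 6.83, 8.88 and 6.17 TPM in B2, 4.17, 2.36 and 4.51 TPM in B2B1 and 0.670, 1.92 and 0.979 TPM in B1. The 3 groups did not overlap. Fas fell by 1.95 in B1 (adjusted p = 0.00025) and by 0.84 in B2B1 (adjusted p = 0.0174), and was higher in B2B1 than in B1 by 1.10 (adjusted p = 0.0184). The call in B2B1 against B2 ended without B2 library 2 (adjusted p = 0.0647) or B2B1 library 2 (adjusted p = 0.0596). That in B2B1 against B1 ended without B2B1 library 1 or 3 (adjusted p = 0.0574 and 0.0583) or B1 library 1 or 3 (adjusted p = 0.0617 and 0.0572). The other targets called in B2B1 against B1 were Pml, higher by 0.35, and Btg2, Ppm1d and Polk, at -0.52, -0.27 and -0.27. Btg2 was called in each setting tried. Ppm1d kept its call whichever single library was left out, and lost it in a fit of the 2 groups alone (adjusted p = 0.0633) and without both B2B1 library 1 and B1 library 2 (adjusted p = 0.0550). With a term for sex the calls of Ppm1d, Fas, Plk2, Pml and Polk in B2B1 against B1 all ended (adjusted p = 0.0965, 0.0872, 0.111 and 0.175 for the first 4). Pml (adjusted p = 0.0369) lost its call without B2 library 1, B2B1 library 1 or 3, or B1 library 1 or 3, and Polk (adjusted p = 0.0497) without any single library but B1 library 2.

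**Figure D4:**
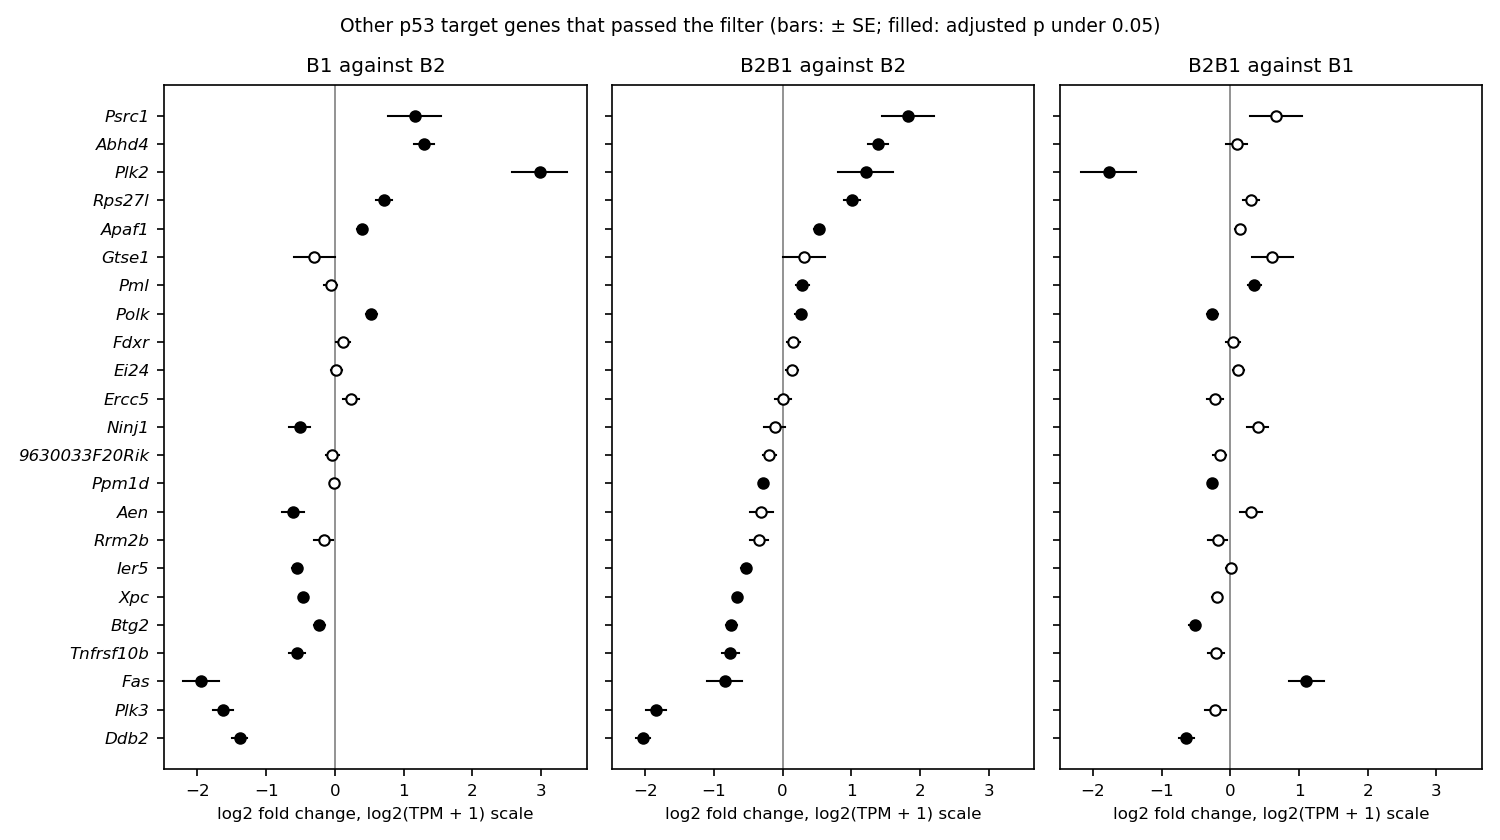
Log2 fold changes (± SE) of the 23 other p53 target genes that passed the filter, in the 3 comparisons, ordered by B2B1 against B2; filled points passed an adjusted p of 0.05. Ddb2 and Plk3 lie lowest and Psrc1 and Abhd4 highest in B2B1 against B2, while Plk2 is the highest in B1 against B2 and the lowest in B2B1 against B1. Psrc1 passed the filter only through the peritoneal libraries, which favoured its rises against B2.

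The Bcl2-family targets Bbc3, Pmaip1 and Bax, which the list of members leaves out, are given for comparison. Of the 3, 1 rose and 1 fell in B1 against B2, 2 rose in B2B1 against B2, and 3 rose in B2B1 against B1. Over all genes, 18.0% rose and 33.9% fell in B1 against B2. The shares of all genes that rose in B2B1 were 21.0% against B2 and 6.93% against B1. Bbc3, which encodes the death activator PUMA, had 3.04, 2.29 and 3.51 TPM in B2, 16.8, 18.5 and 16.5 TPM in B2B1 and 4.28, 6.11 and 8.14 TPM in B1. It rose by 2.22 in B2B1 and 0.84 in B1 against B2 (adjusted p = 1.5e-05 and 0.00623), and was 1.38 higher in B2B1 than in B1 (adjusted p = 0.00203). Pmaip1, which encodes NOXA, had 9.45 to 13.2 TPM in B2, 31.1 to 43.9 TPM in B2B1 and 7.54 to 21.7 TPM in B1. It rose by 1.60 in B2B1 against B2 (adjusted p = 0.00165) and by 1.43 against B1 (adjusted p = 0.0136), the latter not with a term for sex (adjusted p = 0.0694). Bax, a pore-forming death gene, had 122 to 142 TPM in B2, 129 to 147 TPM in B2B1 and 96.3 to 107 TPM in B1. Its B2B1 and B2 libraries overlapped (0.07, adjusted p = 0.452), and the B1 libraries were lower than both, with changes of -0.37 in B1 against B2 (adjusted p = 0.00343) and 0.44 in B2B1 against B1 (adjusted p = 0.00538).

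Genes that act on p53 were mostly lower in the peritoneal groups. Of 16 listed regulators 15 passed the filter, of which 10 fell and 0 rose in B1 against B2, and 9 fell and 1 rose in B2B1 against B2, with medians of -0.37 and -0.40 beside -0.14 and -0.19 for all genes. The falls were 66.7% and 60% of those tested, beside 33.9% and 42.0% of all genes. The rises were 0% and 6.67%, beside 18.0% and 21.0%. At an unadjusted p under 0.05, limma gave 0 higher in B1 against B2. After median-of-ratios scaling 7 fell in B1 against B2 and 6 in B2B1 against B2, and the medians were -0.23 and -0.20 beside values near 0 for all genes. Usp7, a deubiquitinase that acts on Mdm2 and p53, had 122, 118 and 119 TPM in B2, 66.5, 70.8 and 73.0 TPM in B2B1 and 93.2, 84.4 and 82.8 TPM in B1. Its groups did not overlap, and it was the single regulator called in B2B1 against B1 (-0.30, adjusted p = 0.0116, or 0.0844 with a term for sex). Against B2 it fell by 0.77 in B2B1 and 0.46 in B1.

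Among the other regulators, the damage kinase gene Atr fell by 0.75 in B2B1 and 0.74 in B1, the acetyltransferase genes Ep300 and Kat5 by 0.60 and 0.51 in B2B1, and Daxx by 0.53 in B1. Chek1 was the single regulator that rose, by 0.99 in B2B1 (adjusted p = 0.0456), a call that ended without any 1 of the B2 libraries, without B2B1 library 1 or 2, or with a term for sex (adjusted p = 0.0933). Chek1 had 0.713 to 0.825 TPM in B2 and passed the filter only through the peritoneal libraries, so the filter favoured this rise. Mdm4, the relative of Mdm2 that inhibits p53 without degrading it, had 6.50, 6.00 and 4.44 TPM in B2, 5.27, 5.45 and 5.47 TPM in B2B1 and 4.74, 7.13 and 5.01 TPM in B1. Its groups overlapped and it was called in no comparison (adjusted p from 0.833 to 0.965), unlike Mdm2 in the comparisons with B2. Cdkn2a, whose ARF product blocks Mdm2, was under the filter, with 0, 0 and 0.140 TPM in B2, 1.03, 1.17 and 1.15 TPM in B2B1 and 0.378, 0.133 and 0.531 TPM in B1. The p53 relatives Trp63 and Trp73 together were at most 0.133 TPM in any library.

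Close relatives of the members, most of them less tied to p53, gave 0 higher and 7 lower of 8 tested in B1 against B2, 0 and 4 in B2B1 against B2, and 3 and 0 in B2B1 against B1 by limma. Their medians were -0.65, -0.25 and 0.09 beside -0.14, -0.19 and -0.06 for all genes. The 50% called lower in B2B1 against B2 was near the 42.0% of all genes. In B1 against B2 87.5% were called lower, beside 33.9%, and in B2B1 against B1 37.5% were called higher, beside 6.93%. At an unadjusted p under 0.05 the counts were 0 and 7, 0 and 4, and 3 and 1. Among sestrins, Sesn3 had 109, 103 and 96.5 TPM in B2, 42.8, 57.3 and 56.3 TPM in B2B1 and 73.3, 64.3 and 61.5 TPM in B1. Its groups did not overlap, and it fell by 0.98 in B2B1 (adjusted p = 9.8e-05) and by 0.63 in B1 (adjusted p = 0.00186), less than Sesn1 in either group. Sesn1 was the highest sestrin in B2, whereas in B2B1 the Sesn3 libraries lay above the Sesn1 libraries, and in B1 the 2 genes overlapped.

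Among Gadd45 genes, Gadd45g had 36.6, 54.0 and 44.4 TPM in B2, 0.608, 1.18 and 22.4 TPM in B2B1 and 3.21, 14.1 and 1.21 TPM in B1. The B2 libraries were the highest, but B2B1 library 3 and B1 library 2 stood well above their groups. A list of 12 immediate early and heat shock genes, which are known to respond to cell handling, summed to 299, 440.2 and 660 TPM in B2B1 libraries 1, 2 and 3, against 314 to 331 TPM in B2 and 281, 320.4 and 362 TPM in B1 libraries 1, 2 and 3. Of these 12 genes, 6 rose and 1 fell in B2B1 against B2, and 1 rose and 4 fell in B1 against B2, with medians of 0.17 and -0.21 beside -0.19 and -0.14 for all genes. In B2B1 these are 50% and 8.33%, beside 21.0% and 42.0% of all genes. In B1 they are 8.33% and 33.3%, beside 18.0% and 33.9%. Atf3, which rose in both peritoneal groups, had 0.232 to 0.562 TPM in B2 and passed the filter only through the peritoneal libraries. The filter thus favoured its rises. Jun had 23.1, 32.1 and 142 TPM in B2B1 and 12.9, 35.5 and 16.2 TPM in B1, so its highest library in both peritoneal groups was that of Gadd45g. The part of these genes in the Gadd45 values was not tested. Gadd45g fell by 3.39 in B2B1 (adjusted p = 0.0149) and by 3.13 in B1 (adjusted p = 0.0259). Each call ended when single libraries were left out: B2B1 library 1 or 2 (adjusted p = 0.0530 and 0.0534) for B2B1, and any B2 library or B1 library 1 or 3 (adjusted p from 0.0555 to 0.0915) for B1. Gadd45b, with 37.2 to 43.8 TPM in B2, 24.9 to 34.8 TPM in B2B1 and 20.8 to 32.8 TPM in B1, fell by 0.67 in B1 (adjusted p = 0.00933). In B2B1 it fell by 0.47 (adjusted p = 0.0373), a call lost under median-of-ratios scaling (-0.27, adjusted p = 0.191), with a term for sex (adjusted p = 0.0818) and without B2 library 2 or 3 or B2B1 library 1 or 2 (adjusted p from 0.08 to 0.122).

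No difference between a relative and its member was tested. Ccng2, a cyclin like Ccng1, was lowest in B1, with 84.3, 76.3 and 71.7 TPM in B2, 76.9, 65.4 and 82.0 TPM in B2B1 and 46.6, 40.9 and 45.8 TPM in B1. It fell by 0.79 in B1 against B2 (adjusted p = 0.00019), and was higher by 0.73 in B2B1 than in B1 (adjusted p = 0.00161). Trp53inp2 had the same pattern, with a fall of 0.94 in B1 (adjusted p = 0.00438) and a value 1.07 higher in B2B1 than in B1 (adjusted p = 0.00832). The p27 gene Cdkn1b fell by 0.44 in B1 and 0.45 in B2B1 (adjusted p = 0.00109 and 0.00065). Phlda1, at 0.610 to 2.45 TPM, was higher in B2B1 than in B1 by 0.76 (adjusted p = 0.018), a call that ended without B2B1 library 2 or 3 or B1 library 1 (adjusted p from 0.0503 to 0.0603).

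**Figure D5:**
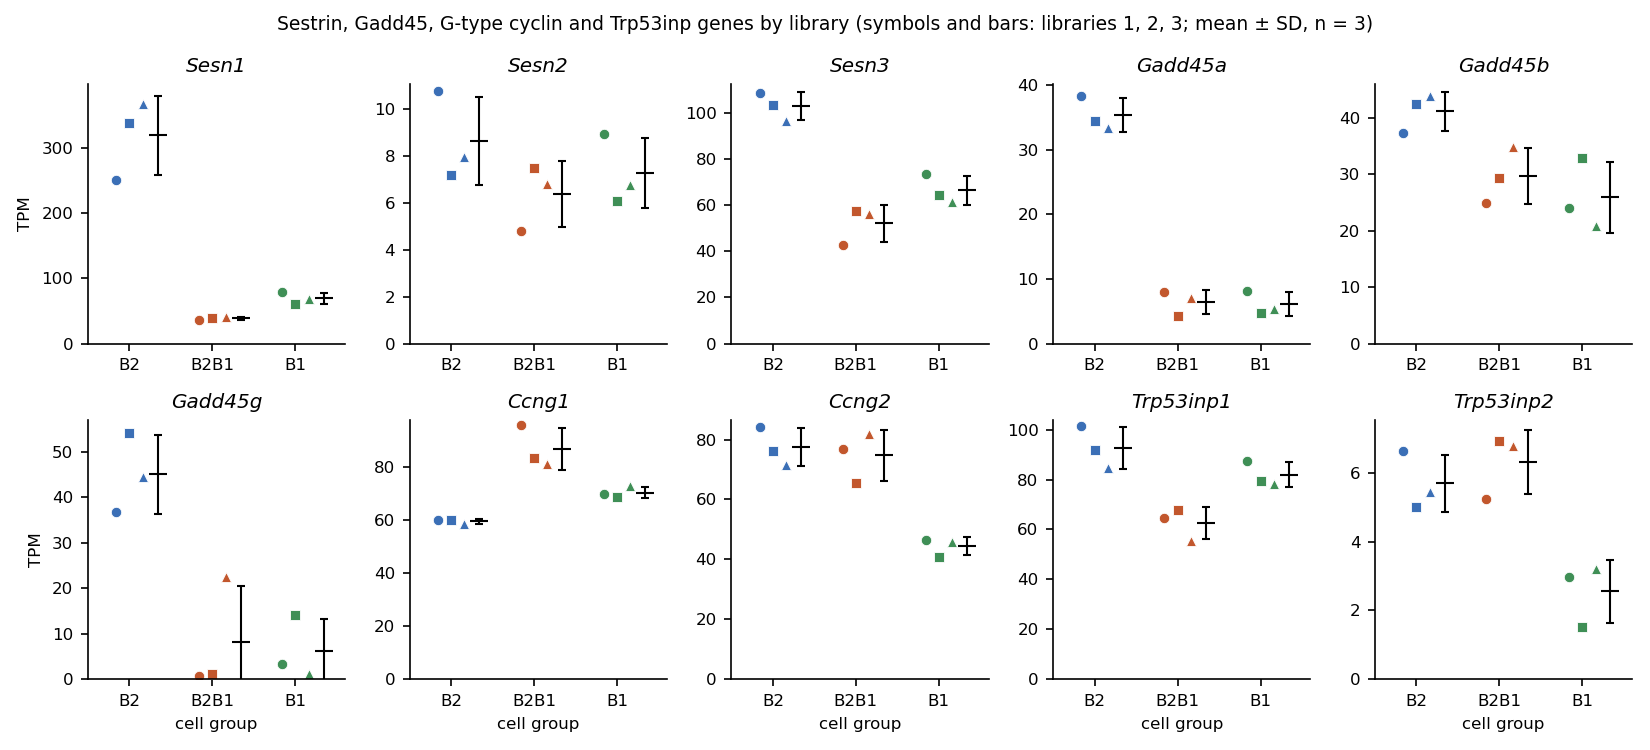
TPM of sestrin, Gadd45, G-type cyclin and Trp53inp genes in each library (vertical axes start at 0 and differ between genes; circle, square and triangle are libraries 1, 2 and 3; black bars are mean ± SD, n = 3, cut at 0). Sesn1, Sesn3 and the Gadd45 genes are highest in B2, Ccng1 is highest in B2B1, and Ccng2 and Trp53inp2 are lowest in B1.

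The partners through which sestrins act were called at shares near those of all genes for falls in the comparisons with B2. Of 14 genes of the GATOR complexes, mTORC1 and its regulators, 1 rose and 5 fell in B1 against B2, and 2 rose and 6 fell in B2B1 against B2. These falls are 35.7% and 42.9% of the list, beside 33.9% and 42.0% of all genes, and the list medians were -0.18 and -0.12 beside -0.14 and -0.19. The rises are 7.14% and 14.3% of the list, beside 18.0% and 21.0% of all genes. After median-of-ratios scaling 3 rose and 2 fell in B1 against B2, beside 2768 and 2547 of all genes. In B2B1 against B2 it gave 4 and 3, beside 3380 and 3171. The GATOR2 gene Mios fell by 0.64 in B2B1 and 0.44 in B1, and the GATOR1 genes Depdc5 and Nprl2 fell by 0.48 and 0.61 in B2B1. In B1 the others that fell were Depdc5, Mlst8, Nprl2 and Sec13, by 0.32, 0.40, 0.25 and 0.14. Of these, Nprl2 lost its call without B2 library 1 or 3 or any B1 library, and its change shrank to -0.11 under median-of-ratios scaling and under quantile normalization (adjusted p = 0.335 and 0.321). Sec13 lost its call without any B2 or B2B1 library or B1 library 1 or 3. Mlst8 lost its call under median-of-ratios scaling (adjusted p = 0.0602), and Sec13 changed sign there (0.0071). Rheb, which activates mTORC1, rose by 0.30 in B1 and 0.24 in B2B1 (adjusted p = 0.00765 and 0.0204), and its call in B2B1 ended without B2 library 1 or B2B1 library 1 or 3 (adjusted p from 0.0584 to 0.0789). Wdr59 rose by 0.33 in B2B1 (adjusted p = 0.0416), a call that ended without B2 library 2 or 3, B2B1 library 1 or 2, or B1 library 1, or with a term for sex (adjusted p = 0.0870). Nprl2 was the single gene of this list called in B2B1 against B1 (-0.36, adjusted p = 0.0187), which ended without B2B1 library 3 or B1 library 1 (adjusted p = 0.0598 and 0.0558) or with a term for sex (adjusted p = 0.118).

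Among 11 tested genes known as FoxO targets, a group that shares Sesn3, Ccng2 and Cdkn1b with the relatives above, 3 rose and 7 fell in B1 against B2 and 1 rose and 6 fell in B2B1 against B2. The share that fell was 63.6% and 54.5%, beside 33.9% and 42.0% of all genes, and the share that rose 27.3% and 9.09%, beside 18.0% and 21.0%. The list medians were -0.44 and -0.45 beside -0.14 and -0.19. The list also holds genes of the FoxO factors themselves, which enter these counts. Of these, Foxo1 fell by 1.05 in B2B1 and 0.83 in B1. The genes that rose in B1 were Pik3ip1, Klf2 and Txnip, by 1.30, 0.46 and 0.45, and Klf2 rose by 0.62 in B2B1. In B1, Klf2 lost its call without B2 library 1 or 3 or B1 library 2 or 3, and Txnip without any B2 library, B2B1 library 2 or 3, or B1 library 1 or 3, or with a term for sex (adjusted p = 0.0886). In B2B1 against B1, Ccng2 was higher and Pik3ip1 lower (-1.13, adjusted p = 0.00893), the latter not called with a term for sex (-0.87, adjusted p = 0.0679). Of 8 tested genes known as ATF4 targets, which include neighbours of Sesn2 in the amino acid stress response, 3 rose and 1 fell in B1 against B2 and 3 rose and 3 fell in B2B1 against B2, which is 37.5% higher in each, and 12.5% and 37.5% lower. Over all genes, 18.0% and 21.0% rose and 33.9% and 42.0% fell. The medians of the ATF4 list were -0.0028 and -0.05 beside -0.14 and -0.19. Asns and Phgdh, enzymes of asparagine and serine synthesis, rose by 1.82 and 2.11 in B2B1 and by 0.98 and 1.67 in B1, while Atf4 fell by 0.61 and 0.41. Atf3, which also belongs to the immediate early list, rose by 4.48 and 4.86. In B2, Atf3 had 0.232 to 0.562 TPM and Asns 0.623 to 1.05 TPM, so both passed the filter only through the peritoneal libraries. The filter thus favoured the rises of Atf3 and Asns, though not that of Phgdh. Ddit4 and Slc3a2 fell by 2.27 and 0.26 in B2B1, the latter not without B2 library 1 (adjusted p = 0.065) or after median-of-ratios scaling (adjusted p = 0.517). In B2B1 against B1, Asns was higher by 0.84 (adjusted p = 0.00797) and Ddit4 lower (-1.88, adjusted p = 0.0346), and the call for Ddit4 ended without B2 library 3, B2B1 library 1 or 3, or B1 library 1 or 3, or with a term for sex (adjusted p = 0.0632).

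Cell cycle genes were counted beside Cdkn1a and Gadd45a, whose products act on the cycle. Of 15 tested, 7 rose and 1 fell in B2B1 against B2 (46.7% and 6.67%, beside 21.0% and 42.0% of all genes). Those that rose included the proliferation marker Mki67 (2.63, adjusted p = 0.00461) and Top2a (2.16, adjusted p = 0.00849). The rises of Ccnb1, Ccnb2, Cdk1 and Rrm2 were not called without B2B1 library 1 (adjusted p from 0.0550 to 0.118). Cdk1 had 0.270 to 0.506 TPM in B2 and passed the filter only through the peritoneal libraries, so the filter favoured its rise. Tyms, a nucleotide synthesis gene, fell by 0.55. In B1 against B2, 0 rose by limma and Tyms fell (-0.39, adjusted p = 0.0323, not called without B2 library 1 or 2 or B1 library 1, or with a term for sex), and in B2B1 against B1 limma called 0. At an unadjusted p under 0.05 limma gave 1 higher and 1 lower in B1 against B2 and 0 in B2B1 against B1. These counts depended on B2B1 library 1 and B1 library 2, the highest for these genes. Without both, a choice made after seeing the data, 11 rose and 0 fell in B2B1 against B1. All genes called there were then 882 higher and 1295 lower. In B1 against B2, 2 rose and 4 fell, beside 2107 and 4105 of all genes.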

How the data were processed

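RNA-seq libraries of B2, B2B1 and B1 cells (3 each) were grouped by their labels. Per the labels' protocols, polyA RNA from a Qiagen RNeasy micro kit was made into TruSeq libraries. Reads were processed with CASAVA 1.8.2, kallisto and build mm10, per the submitters' processing notes. Not given in the sources used here were the kallisto version, the transcript set and the strand setting. The authors deposited TPM per gene symbol, so no count model and no counting interval could be used, and reads of overlapping or antisense genes may not be told apart.

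Values were analysed as log2(TPM + 1), a scale that understates the change of low genes, for genes averaging at least 1 TPM over the 9 libraries. One limma model (version 3.58.1, R 4.3.3, with lmFit, contrasts.fit and trended eBayes) without covariates took in all libraries and gave the 3 comparisons. P-values are two-sided and Benjamini-Hochberg adjusted per comparison. An exact permutation test of 3 against 3 libraries cannot go below 0.1 and was not used. The fit was tested on simulated data. Coordinates are from GENCODE M21 on GRCm38. Python 3.11.15 with matplotlib 3.10.9 drew the figures.

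The members and lists were chosen with earlier results of these data known. All members are named, and from each list up to 4 tested genes per comparison with the smallest adjusted p, every gene where a count is 5 or fewer, and genes that did not pass where needed; Cdkn2a, Trp63, Trp73, Phlda3 under other pseudocounts, Jun and the single marker genes were chosen after their values were seen. Alternatives were pseudocounts of 0.1 and 0.5, no filter or a mean of at least 5 TPM, median-of-ratios and quantile scaling, fits of 2 groups alone, no trend, library weights, a replicate block, a term for sex (from Xist at 10 TPM) and leaving out each library. A gene of the FoxO list enters that list's counts, and its own values are not reported here.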

Additional observations from a re-analysis of the deposited data

How the results depend on the processing

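Under the 21 alternatives tried, 3 of the 6 members called in B1 against B2 were called in every one (Mdm2, Sesn1, Gadd45a), as were 8 of 9 in B2B1 against B2 (all but Cdkn1a, with Phlda3 and Cdkn1a untested at a mean of 5 TPM) and 1 of 4 in B2B1 against B1 (Sesn1). The number of members called in B1 against B2 ranged from 3 to 7 when single libraries were left out, with 3 without B2 library 3 or B1 library 3. In B2B1 against B1 the 4 called members became 2 in a fit of the 2 groups alone, 2 with a term for sex, and 1 to 4 without single libraries, with 1 without B1 library 1. All genes called there numbered 1129 in the fit of 2 groups, 842 with the term for sex and 1341 to 2445 without single libraries, against 2108. Differences that changed sign were small. In B2B1 against B1, Trp53 ranged from -0.22 to 0.0398 without single libraries and was 0.0025 without both B2B1 library 1 and B1 library 2. Mdm2 ranged from -0.17 to 0.0054 and was 0.0037 without both. Gadd45a ranged from -0.0878 to 0.29, and was -0.0296 with library weights and -0.23 without both. Sec13 in B1 against B2, called at -0.14, was 0.0071 after median-of-ratios scaling. The cause of these changes was not tested. Same-numbered libraries of different groups correlated at -0.058 to 0.123 in their deviations, and those of unlike number at -0.205 to 0.125. This gave no sign that the numbers pair the libraries, and with so few pairs it cannot exclude it. With a replicate block 6, 8 and 3 members were called and 5533, 6855 and 1737 genes. The calls lost among members were those of Cdkn1a in B2B1 against B2 (adjusted p = 0.0533) and Phlda3 in B2B1 against B1 (adjusted p = 0.0538). Where a group is reduced to 2 libraries, the pooled spread is assumed to hold. TPM carry no depth, so for members near 1 TPM (Phlda3, Cdkn1a) the counting error is unknown.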
